A study of Mus musculus with 31 samples.

Results

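The array of the recombinant inbred strain BXD15 was compared with the arrays of the other 30 BXD strains. It is 1 of 31 arrays, with 1 array per strain. BXD15, and the genes described, were selected on the log2 ratios themselves, as values outside the range of the other strains. The counts and differences below therefore describe that choice and carry no test. BXD strains are inbred lines bred from C57BL/6J and DBA/2J mice, and each is fixed at any locus for the allele of either parent. For BXD15, as for each other strain, RNA of 3 male mice aged 8 weeks was pooled, labelled with a red Alexa Fluor dye and hybridised with a C57BL/6J reference labelled with a green one. No array had the dyes swapped, and spike-in transcripts went into the reference alone. BXD15 was measured once and from a single pool, so an effect of the strain and one of its array cannot be told apart.

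Every value is a log2 ratio of the strain to the shared reference. This direction and base are the likely ones from the convention of limma, which the submitters' processing notes name, and are not stated. Sample titles give kidney as the tissue, and the source and tissue fields give whole brain. A ratio holds no level, so neither could be checked against defining markers. In a kidney, most cells are epithelial cells of the tubule, and the proximal tubule reabsorbs solutes with energy from fatty acid oxidation and a dense respiratory chain. Glycolytic enzymes such as Gapdh, and tubulins such as Tuba1b, are made in nearly all cells, and Gapdh is often spotted many times on an array as a control.

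BXD15 was below the lowest of the other 30 strains at 1974 of 23040 probes (8.57%) and above the highest at 1821 (7.9%). Each other array was set against the 30 that remained in the same way. Such an array had 775 probes outside on either side at the lowest (BXD40), a median of 1246 and 3425 at the highest (BXD38), against 3795 in BXD15. By at least 0.5 on the log2 scale, BXD15 was below at 540 probes (2.34%) and above at 256 (1.11%). The other strains had from 26 to 373 probes that far below, with a median of 83. For probes far above, BXD38 had more than BXD15, with 311.

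With the probes of a gene averaged, BXD15 was below the range for 1449 of 15096 genes (9.6%) and above it for 1100 (7.29%). Members close to the edge differ little from non-members. Shisa9 was the last gene below, 3.92e-05 under the lowest strain, and Cpa3, with the same value as the lowest strain, was the first one not counted. Above, Glipr1l2 exceeded the highest strain by 0.000317, and Gpkow, at 0.766 in BXD15 and in the highest strain to this precision, stayed inside. All arrays hold the same sorted set of values, so low ranks for some probes of an array are matched by high ranks for others.

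**Figure D1:**
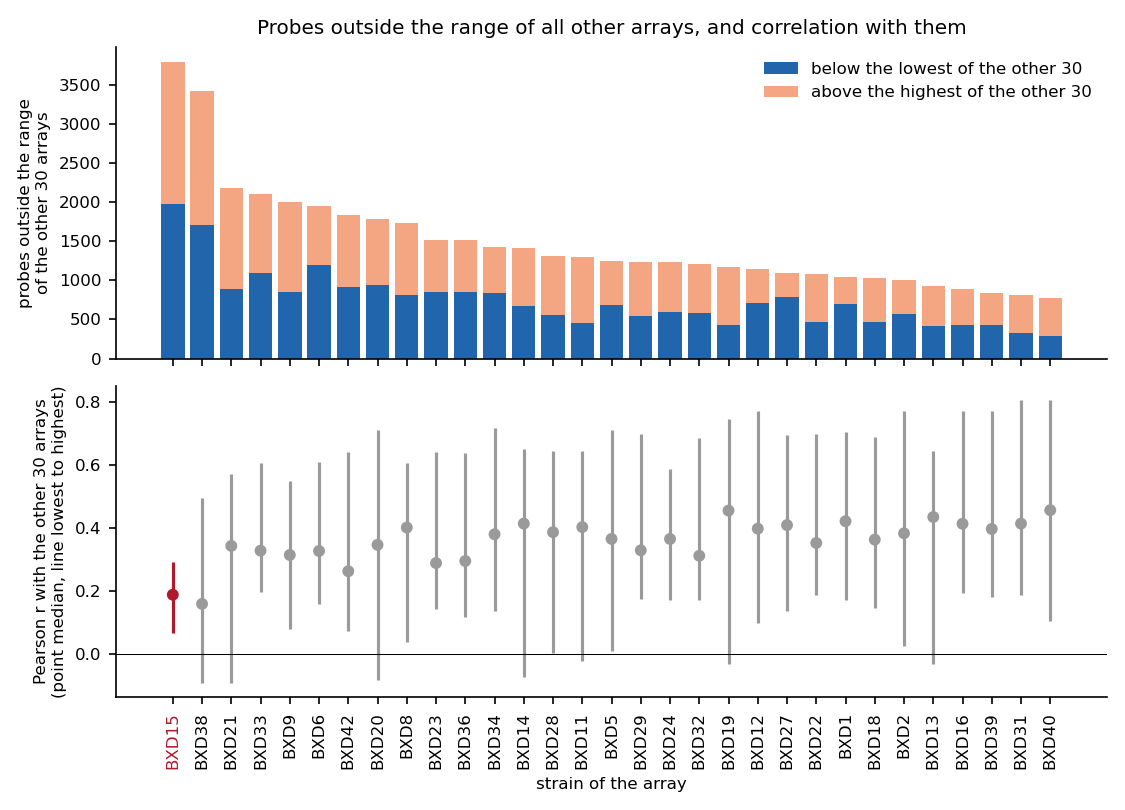
The upper panel gives the number of probes of each array below and above the range of the other 30 arrays, and the lower panel its Pearson correlation with them over 23040 probes (point, median; line, lowest to highest). BXD15, at the left, has 3795 probes outside and no correlation over 0.291; the other strains follow in falling order of the count.

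Over the 23040 probes, the Pearson correlations of BXD15 with the other arrays had a median of 0.188 and lay between 0.0668 and 0.291. The same median lay between 0.159 (BXD38) and 0.457 for the other arrays, at 0.373 for the middle one. BXD15 had no close partner: its highest correlation was 0.291, whereas every other array had at least 1 of 0.494 or more. These points share 1 reference RNA and the layout of the array. Over probes with a gene name the median of BXD15 was 0.0447, against 0.0630 to 0.430 in the other strains. Over the 6032 probes without a name it was 0.384, against 0.294 to 0.520. The other arrays, too, were more alike at unnamed than at named probes, with a middle value of 0.449 and 0.319.

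Named and unnamed probes also differed in the side on which BXD15 lay. Of named probes other than Gapdh, 9.42% were below and 7.31% above the range. Among unnamed probes 4.68% were below and 9.76% above.

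Gapdh, the glycolytic enzyme glyceraldehyde-3-phosphate dehydrogenase, was spotted 232 times. The median over its spots was -1.30 in BXD15, against a lowest of -0.18 (BXD42), a median of 0.18 and a highest of 0.59 (BXD6) in the other 30 strains. In BXD15 210 of the 232 spots were below 0, against 3 to 161 in the other strains. BXD15 was the lowest strain of all at 120 of the 232 spots, and the highest at 0 of them. The spots of 1 array are repeated measurements of 1 pool and not replicates of the strain.

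The low Gapdh values of BXD15 were not spread evenly over the spots. The table of probes runs in 48 repeats of 480 places, and all Gapdh spots but 1 sit in the repeats numbered 3, 4, 7 and 8. In BXD15 the Gapdh median was -0.10 in repeat 3, -0.43 in repeat 4, -2.19 in repeat 7 and -1.99 in repeat 8. The medians of the other strains over the same repeats were 0.22, 0.32, -0.01 and 0.05. The lowest median of any other strain was -0.34 (BXD42), -0.40 (BXD22), -0.69 (BXD8) and -0.34 (BXD11). BXD15 was thus the lowest strain in repeats 7 and 8, and by a small margin in repeat 4.

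No other array had a step of this size between the pairs of repeats. Repeats 7 and 8 minus repeats 3 and 4 gave -1.83 in BXD15, against -0.53 (BXD31) to 0.26 (BXD22) in the other strains, with a median of -0.10. In the first pair, BXD15 had a Gapdh median of -0.24 and was second lowest of 31, with 18 of 116 spots below the range. In the second pair, 101 of 115 spots were below the range. The single spot in repeat 13 was at -2.05, against -1.04 to 1.73.

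As a set, probes beside the Gapdh spots did not share the low values. The 464 probes next to a Gapdh spot had a median difference of 0.01 between BXD15 and the median of the other 30. Of these 464 probes, 12.1% were below the range and 7.11% above, against 8.57% and 7.90% of all probes. Of the other probes at the same places of the repeat as Gapdh spots, 6.31% were below. Over the other probes of repeats 7 and 8, the median difference was 0.04 and -0.02. Gapdh was thus far lower in BXD15 at one set of spots and within the range of the others at most of another. Whether the spots of the repeats carry the same probe sequence is not given in the sources used here, and the cause of the step was not tested.

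**Figure D2:**
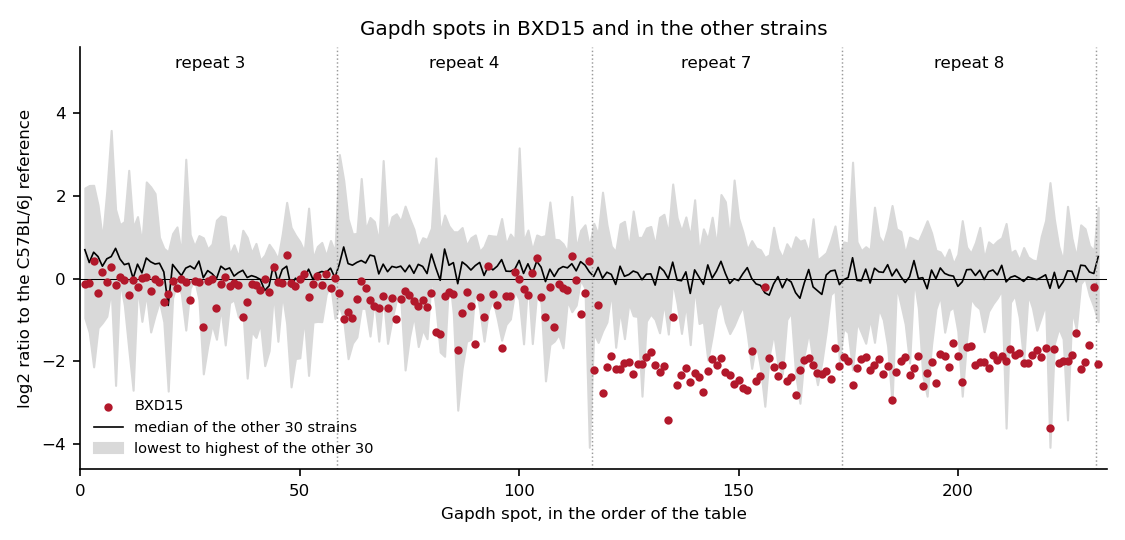
The log2 ratio at each of the 232 Gapdh spots, in table order, is shown for BXD15 (points), with the median (line) and the lowest to highest value (grey band) of the other 30 strains; dotted lines part the repeats. BXD15 lies within the band at most spots of repeats 3 and 4, near -2.19 in repeat 7 and near -1.99 in repeat 8, while the line stays near 0.

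Among single genes, those with BXD15 farthest below the nearest other strain included several metabolic enzymes. After Gapdh came Cyp4a10, a cytochrome P450 that hydroxylates fatty acids, at -3.18 in BXD15, against a lowest of -1.11, a median of 0.65 and a highest of 1.90 in the other strains. Mdh1, the cytosolic malate dehydrogenase, was at -2.39, against -0.44, 0.29 and 0.98. No other strain came within 1.95 of BXD15 for Mdh1.

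Taldo1, the transaldolase of the pentose phosphate pathway, was at -2.63 in BXD15, against -0.97, 1.04 and 2.86 in the others. Gpat4, which adds the first acyl chain in glycerolipid synthesis, was at -2.61, against -0.93, 0.17 and 1.23. Aldoa, the aldolase of glycolysis, was at -1.76, against -0.12, 0.49 and 0.89. For each of these BXD15 was negative and the median strain was positive. Cyp4a10, Mdh1, Taldo1 and Aldoa, but not Gpat4, sit at places of the table where BXD15 was more often below the range, described further on. Cyp4a10 also sits in repeat 7, which holds low Gapdh spots. The part of place in these values was not tested.

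The rest of the 12 genes farthest below had other roles. Nbeal2, needed for the alpha granules of platelets, was at -1.81 in BXD15 and positive in every other strain, from 0.09 to 0.92. Ptpn23, an endosomal sorting protein, and Cystm1, a small membrane protein, were at -1.75 and -1.69, and also positive in all others. Tmc1, part of the mechanosensitive channel of inner ear hair cells, was at -2.37, against -0.55 to 0.49. Chd8, a chromatin remodeller, and Haghl, a relative of glyoxalase 2, were at -1.72 and -1.75, against lowest values of -0.11 and -0.14 in the others. Taldo1, Chd8, Tmc1 and Cystm1 all sit in repeat 45 of the table, Ptpn23 in repeat 46 and Aldoa in repeat 47. These repeats held 28, 22 and 15 probes at least 0.5 below the range, Gapdh left out, and repeat 48 held 19. The median over the 48 repeats was 8.5. The part of this in the values of these genes was not tested.

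Among these single probes the widest gaps were on the upper side, although more probes lay at least 0.5 below the range than above it. Drd1, the D1 dopamine receptor, was at 4.56 in BXD15, against a lowest of -1.56, a median of -0.48 and a highest of 0.53 in the others. Its other probes gave -0.73 and 0.03 in BXD15, both inside the range. The high value of Drd1 thus rests on 1 of 3 probes.

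The uncharacterised gene 4933436E23Rik was at 4.27 in BXD15, against -0.13, 0.43 and 0.79. Trappc12, which tethers vesicles, was at 4.09, against -0.56, -0.08 and 0.66. Gak, a kinase of clathrin uncoating, was at 3.42, against -0.63, 0.27 and 0.53. Bpifa3, Phf3, Zfp414, Kiss1r, the receptor of kisspeptin, and Ctsw, a lymphocyte protease, were from 2.57 to 3.37 in BXD15, with 0.82 as the highest value of any other strain. Pde3b, which breaks down cyclic nucleotides, the splicing factor Cdc40, and 2810002D19Rik were from 2.20 to 2.54. Phf3 has a second probe, which was at 0.12 in BXD15, close to the 0.12 of the median strain. Of the 12 genes named above the range, 2 thus have further probes, and in both cases those probes did not share the high value.

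**Figure D3:**
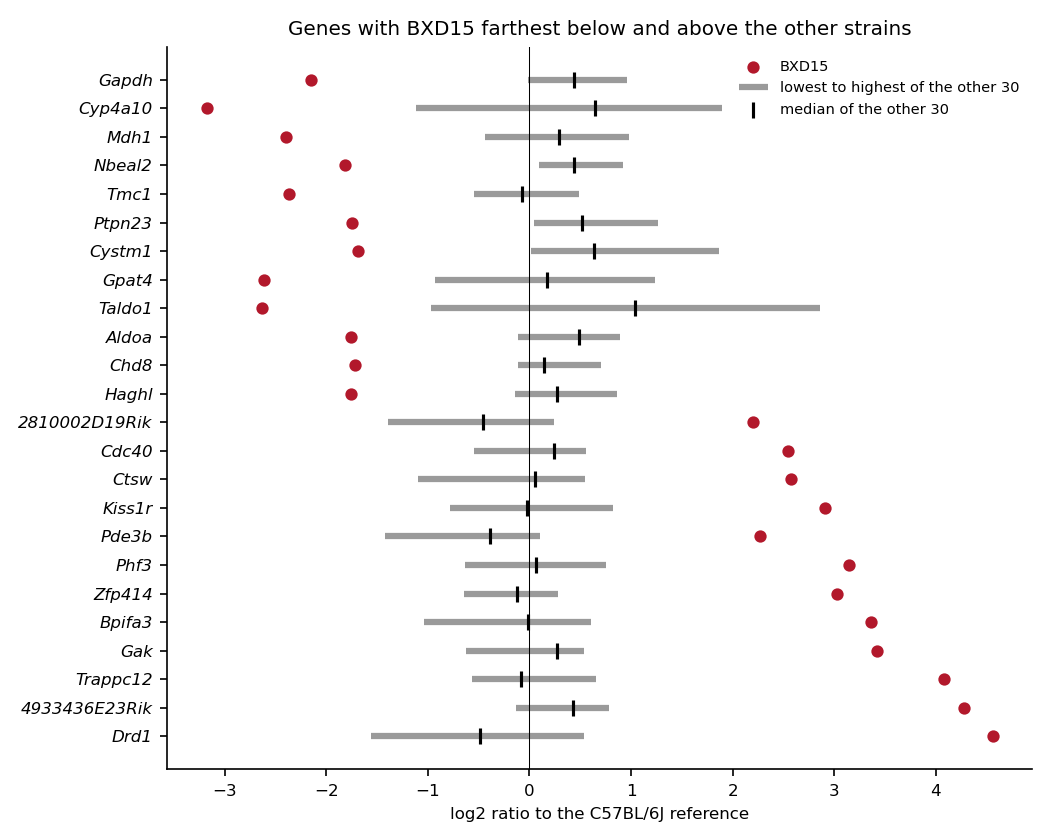
For the 12 genes with BXD15 farthest below and the 12 with BXD15 farthest above the nearest other strain, the log2 ratio is shown in BXD15 (point), with the range (bar) and the median (tick) of the other 30 strains. The points run from -3.18 for Cyp4a10 to 4.56 for Drd1, each clear of its bar.

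A second probe gives another measurement of a gene on the same array. Over the 902 genes with 2 probes, 167 probes of BXD15 were below the range (9.26%), and the partner of such a probe was below as well in 12.0% of cases. For the 130 probes above (7.21%), the partner was also above in 10.8%. These shares are close to the background, so most single values outside the range were not repeated by the other probe. Weak repetition was not particular to BXD15. Differences at the 2 probes of a gene correlated at 0.08 in BXD15, against -0.06 (BXD24) to 0.12 (BXD2) in the other strains. They had the same sign for 52.7% of genes in BXD15, against 48.4% (BXD24) to 54.3% (BXD11). Of the genes with 2 probes, 10 had both below and 7 had both above, named here after their values were seen.

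The low pairs with the widest margin were Aoah, a lipase that inactivates bacterial endotoxin, with a probe at -0.97, against a lowest of -0.19 in the other strains, and Rnf216, a ubiquitin ligase, at -0.71 and -0.93, against -0.29 and -0.44. The ribosomal stalk protein Rplp0 was at -0.53 and -1.25, against -0.53 and -0.69. High pairs had smaller values: Herc1, a giant ubiquitin ligase, was at 0.69 and 0.36, against highest values of 0.40 and 0.14, and Rybp, a Polycomb component, at 0.71 and 0.91, against 0.52 and 0.43.

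The place of a probe in the repeat of the table went with its side in BXD15. Divided into 16 stretches of 30 places, the first 3 stretches held 18.7% of probes other than Gapdh and 38.5% of those at least 0.5 below the range. In the other strains that share had a median of 14.4% and a highest of 36.4% (BXD5). At these places 14.0% of the probes of BXD15 were below and 4.77% above, and at all other places 6.77% and 8.72%. Of the genes farthest below, Gapdh left out, Cyp4a10, Mdh1, Taldo1 and Aldoa sit at these places and the rest do not. Slc22a12 and Tuba1b, described below, sit at these places too. Among the 799 probes of the gene lists described next, 372 sat at these places (46.6%). Counts at the remaining places, where 7.96% of all genes were below, are therefore given beside the main lists. At the first places, 14.5% of all genes were below. Over all places, 9.6% of all genes were below and 7.29% above, and each list count is to be read beside these shares. The part that place had in the list values was not tested beyond this division.

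**Figure D4:**
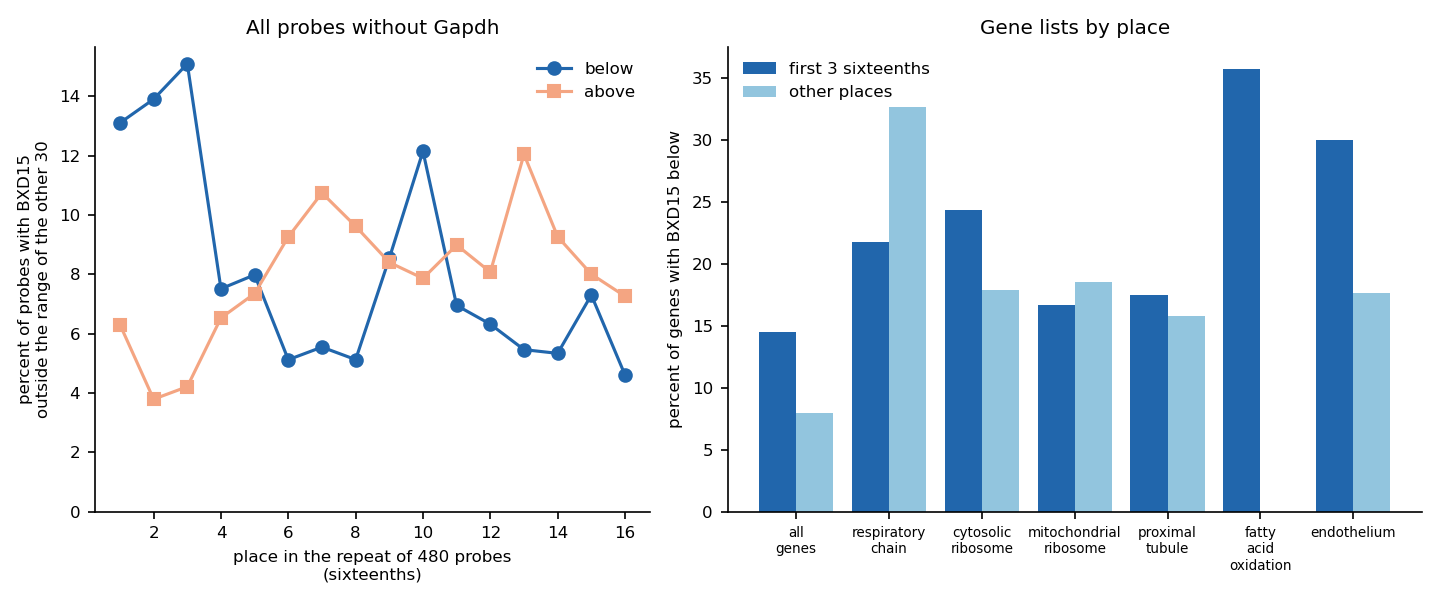
Left, the percent of probes other than Gapdh with BXD15 below or above the range of the other 30 strains, by place in the repeat in sixteenths; right, the percent of genes with BXD15 below, for probes at the first 3 sixteenths (dark) and at all other places (light). At the other places, the share below was 32.7% for the respiratory chain and 0 for fatty acid oxidation, against 7.96% for all genes.

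The respiratory chain passes electrons from nutrients to oxygen and drives ATP synthesis in mitochondria. Of its 72 measured genes, 21 were below and 1 above the range in BXD15 (29.2% and 1.39%, against 9.6% and 7.29% of all genes). The median difference from the other strains was -0.67, against -0.01 over all genes. The mean of the list was -0.30 in BXD15, the lowest of 31, against a lowest of -0.11 (BXD9), a median of 0.39 and a highest of 0.95 in the other strains. Outside the first places, 16 of 49 genes were below, with a median difference of -0.67.

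Complex I, which takes electrons from NADH, had 12 of 32 genes below and 1 above, and 10 of 29 below outside the first places. Its subunit Ndufa2 was at -2.22 in BXD15, against a lowest of -1.10, a median of 0.60 and a highest of 1.61 in the others. Ndufs3, a core subunit, was at -1.51, against -0.90, 0.13 and 1.45. Ndufa1 was at -0.14, while no other strain was under 0.14. The exception above the range, singled out after its value was seen, was Ndufv3 at 0.13, against a highest of -0.12.

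Complexes II and III, which pass electrons on through ubiquinone, had 3 of 13 genes below. All 3 belong to complex III: Uqcrb at -1.76 in BXD15, against a lowest of -0.91, Uqcr10 at -0.64, against -0.32, and Uqcrc2 at -0.53, against -0.49. Complex IV, the cytochrome oxidase, had 3 of 12 genes below and 12 of 12 lower than the median strain. Its subunit Cox5b was at -1.82, against -0.21, 0.66 and 3.09 in the others. Cox6c and Cox4i1 were at -0.89 and -0.90, against lowest values of -0.26 and -0.58. ATP synthase had 3 of 15 genes below, among them Atp5c1 at -0.62, against -0.21, and its inhibitor Atpif1 at -1.50, against -0.65. The catalytic subunit gene Atp5b, at -1.67, stayed inside a range that reached -2.50 in BXD33.

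The citrate cycle, which feeds the chain, had 5 of 13 genes below and 0 above. Fh1, the fumarase, was at -1.30 in BXD15, against a lowest of -0.67, a median of 0.59 and a highest of 1.30. Sucla2, a subunit of succinyl-CoA ligase, was at -0.99, against -0.45, 0.49 and 1.16. The mean of the list was -0.32 in BXD15, close to the -0.35 of BXD9, the only strain below it. Outside the first places, 4 of its genes were measured and 2 of them were below.

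Fatty acid oxidation, the main fuel pathway of the proximal tubule, was less clearly low. In BXD15 5 of 23 genes were below and 1 above, with a median difference of -0.29. The list mean was -0.003 in BXD15, against -0.10 (BXD38), 0.36 and 0.86 in the other strains, so that BXD38 was lower. Acadl, the long-chain acyl-CoA dehydrogenase, was at -1.98, against a lowest of -1.56, a median of 0.14 and a highest of 1.52.

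Eci1, an isomerase for unsaturated fatty acids, was at -0.39 in BXD15, against -0.03, 1.02 and 2.30 in the other strains. Crat, the carnitine acetyltransferase, was at -0.42, against -0.06, 0.79 and 1.72. Cpt1a, which controls entry of fatty acids into mitochondria, was at -1.03, inside a range that began at -1.08. All 5 genes below sat at the first places, among 14 genes there. Of the 9 genes at other places, 0 were below and 1 was above, with a median difference of 0.02. That gene, Decr1, was at 0.67, against a highest of 0.57, and is named after its value was seen. With spot position removed, the whole list had a median difference of -0.24, with 4 genes below.

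The proximal tubule was described by transporters, receptors and enzymes. In BXD15 10 of its 56 measured genes were below and 2 above the range (17.9% and 3.57%, against 9.6% and 7.29% of all genes), with a median difference of -0.61. The list mean was -0.37 in BXD15 and -0.35 in BXD38, the lowest of the other strains, which had a median of 0.32 and a highest of 0.85. In a ratio from whole tissue, fewer cells of a type and less RNA per cell cannot be told apart. At the first places 7 of 40 genes were below, or 17.5%, near the 14.5% of all genes there. At the others 3 of 19 were below, or 15.8%, against 7.96%, a gene with probes at both being counted in both.

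Slc22a12, the urate exchanger of the proximal tubule, was at -1.73 in BXD15, against a lowest of -0.98 (BXD38), a median of 0.04 and a highest of 2.28 (BXD2). Slc22a18, an organic cation transporter, was at -1.60, against -0.59, 0.26 and 1.18. Slc27a2, which carries and activates very long-chain fatty acids, was at -2.41 and inside the range, since BXD38 had -2.74. Slc17a1, a sodium phosphate cotransporter, was at -1.90 and also inside it. For the transporters as a list, 5 of 26 genes were below and 1 above, which was Slc3a1 of the cystine carrier at 0.71, against a highest of 0.39, named after its value was seen.

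Among the enzymes, 5 of 30 were below and 1 above. Besides Cyp4a10, the ethanol-inducible cytochrome P450 Cyp2e1 was at -2.06 in BXD15, against a lowest of -1.11, a median of 0.22 and a highest of 1.10. Khk, which phosphorylates fructose, was at -1.47, against -1.62, 0.56 and 2.68. Kap, the androgen-regulated protein of mouse proximal tubules, went the other way: it was at 3.11, against -1.67, 0.17 and 2.96, the highest of 31. Of the 13 androgen-responsive kidney genes, which include Kap, 1 was below the range and 1 above (7.69% each), and 10 were under the median strain. Their list mean was -0.49 in BXD15, while BXD33 (-0.88) and BXD38 (-0.75) were lower. Odc1, the enzyme that begins polyamine synthesis, was at -2.46 and Cyp7b1, a steroid hydroxylase, at -1.88, against lowest values of -2.51 and -1.85.

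Later segments of the nephron gave low values as well, over few genes. Umod, which encodes uromodulin of the thick ascending limb, was at -3.08 in BXD15, against a lowest of -1.64 (BXD9), a median of 0.05 and a highest of 1.01. Slc12a3, the thiazide-sensitive cotransporter of the distal tubule, was at -1.27, against -0.71, 0.01 and 0.85. Scnn1a, the alpha subunit of the epithelial sodium channel, was at -1.45, against -0.61, 0.62 and 1.41. The loop of Henle list had 2 of 7 genes below, the distal tubule 3 of 7 and the collecting duct 4 of 18, with 0 above in each. Each of the 3 list means was the lowest of 31 in BXD15, at -0.48, -0.77 and -0.30. Outside the first places, 1 of 4, 2 of 5 and 1 of 8 of their genes were below.

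Endothelial genes were below the range for 6 of 27 and above it for 1, with a median difference of -0.30. These shares were 22.2% and 3.70%, against 9.6% and 7.29% of all genes. Their list mean was -0.29 in BXD15, against a lowest of -0.16 (BXD42), a median of 0.05 and a highest of 0.32. Flt4, a receptor of lymphatic growth factors, was at -1.13, against -0.36, 0.13 and 0.73. Eng, the endothelial coreceptor endoglin, was at -1.05, against -0.69, 0.09 and 0.69. Emcn, the sialomucin endomucin, was at -0.55, against -0.17, 0.66 and 2.27. The exception was Vwf, von Willebrand factor, at 0.36, against a highest of 0.21, named after its value was seen. Outside the first places, 3 of 17 genes were below, and the median difference was -0.20 there, as it was with spot position removed.

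The other cell types did not all lie on the low side. Macrophage genes were below the range for 3 of 15 (2 of 9 outside the first places), with Mrc1, the mannose receptor, at -1.70 in BXD15, against a lowest of -1.22, and Cd68 at -1.19, against -0.39. Podocyte genes were below for 2 of 12 (16.7%) and above for 1 (8.33%), and stromal genes for 2 and 2 of 18 (11.1% each). Over all genes the shares were 9.6% below and 7.29% above, so the stromal share below and the podocyte share above were near them. The lymphocyte list was the highest of 31 in BXD15, with a mean of 0.03, against -0.44 to -0.01 in the other strains, although only 1 of 14 genes, Nkg7, was above the range. Lists of neuronal and glial genes were second highest, at 0.12 and 0.17. Syp, a protein of synaptic vesicles, was at 1.54, against -0.46, 0.21 and 0.63, while Nefh, a neurofilament subunit, was at -1.65, against -0.77, 0.13 and 0.80.

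**Figure D5:**
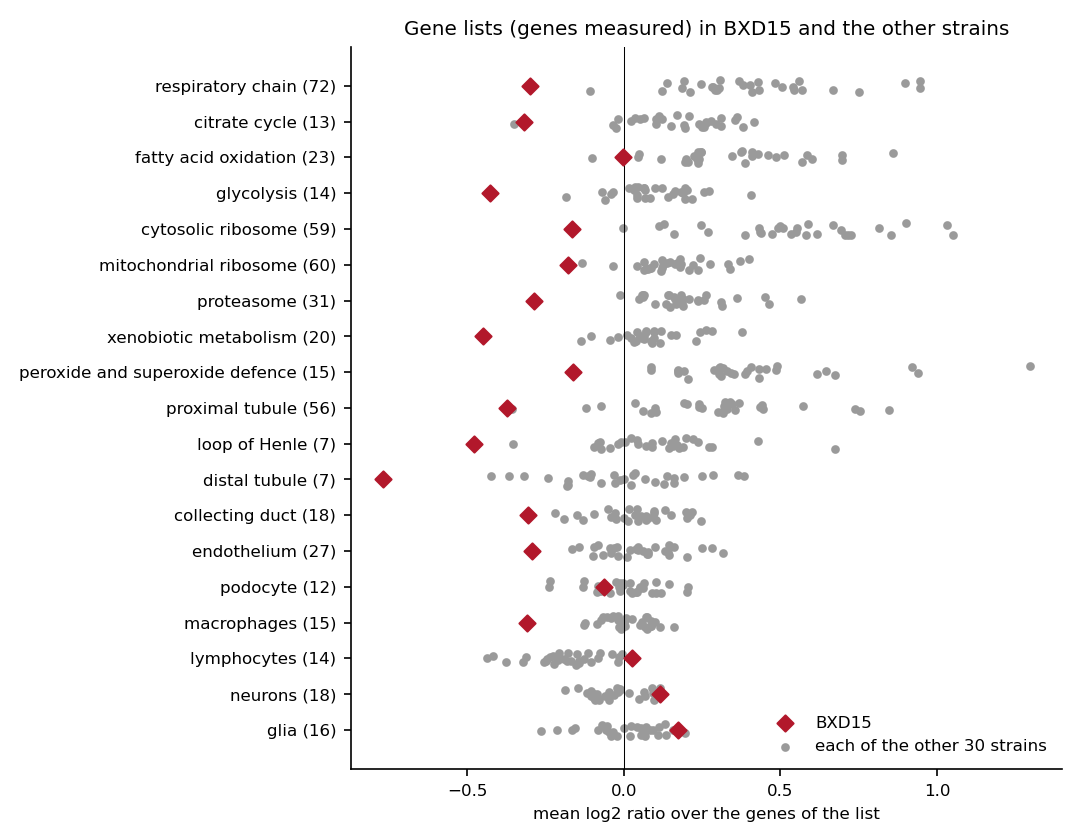
The mean log2 ratio over the genes of each list is shown for BXD15 (diamond) and for each of the other 30 strains (dots), with the number of genes measured in brackets. BXD15 has the lowest mean for most of the metabolic and tubule lists shown and the highest for lymphocytes.

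The low side also held genes that are made in all cells. Of 59 genes of the cytosolic ribosome, 14 were below and 0 above in BXD15, and the list mean was -0.17, against -0.003 (BXD9), 0.54 and 1.05 in the other strains. Rpl14 was at -2.31, against a lowest of -1.24, a median of 0.21 and a highest of 1.52. Rpl10 was at -0.74, whereas no other strain was below 0.13. Outside the first places 5 of 28 ribosomal genes were below.

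The mitochondrial ribosome has 54 of its 60 genes measured outside the first places. In BXD15 11 of the 60 were below and 1 above, and 10 of the 54 were below. Mrps14 was at -1.31, against a lowest of -0.04, a median of 0.59 and a highest of 0.99. Mrps24 was at -1.20, against -0.24, 0.49 and 0.99.

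The proteasome, which degrades ubiquitin-tagged proteins, had 13 of 31 genes below and 1 above. Psma7, of its core ring, was at -0.69 in BXD15, against a lowest of -0.08, a median of 0.43 and a highest of 1.12. Of its genes at the first places 12 of 24 were below, and at other places 1 of 7. Nearly all proteasome genes below the range thus sat at the first places, where most of the list lies. The median difference was -0.62 there and -0.26 at the other places. Over the whole list it was -0.50, and -0.38 with spot position removed.

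Glycolysis had 5 of 14 genes below and 0 above, but only 8 of the 14 were under the median strain. Its median difference was -0.12, and 0.10 with spot position removed. Pfkl, a phosphofructokinase, was at -0.99 in BXD15, against 0.17, 0.72 and 1.27 in the others. Ldhb, of lactate dehydrogenase, was at -1.51, against a lowest of -0.40. Only 1 of these genes was measured outside the first places, and it was inside the range. Of 15 tubulin genes 2 were below (13.3%, against 9.6% of all genes). Tuba1b, a major alpha tubulin, was at 0.09, just under the 0.13 of BXD38, with a median of 1.19 and a highest of 4.95 (BXD20), so it separated BXD15 from BXD38 by 0.04 alone.

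Detoxification genes lay on both sides of the range, mostly below it. Of 20 genes of xenobiotic metabolism, 8 were below and 1 above in BXD15, among them Ephx2, the soluble epoxide hydrolase, at -1.75, against a lowest of -0.42, a median of 0.23 and a highest of 1.31. Cyp2a5, a coumarin hydroxylase, was at -1.07, against -0.91, 0.47 and 1.86. In peroxide and superoxide defence, 5 of 15 were below and 1 above. Outside the first places the counts below were 3 of 11 and 2 of 4.

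Sod1, the cytosolic superoxide dismutase, was at -1.99 in BXD15, against -0.78, 0.36 and 1.26 in the other strains. Gpx4, which reduces lipid peroxides, was at -1.03, against -0.49, 0.25 and 2.48. Gpx3, the glutathione peroxidase that kidney secretes into plasma, was at 2.84, against -0.78, 0.47 and 1.28. Gpx3 thus stood above all other strains in a list whose mean was the lowest of 31 in BXD15.

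In all, 41 lists were described, 739 distinct genes. BXD15 had the lowest mean of 31 in 19 of them, and the strain with the next most, BXD34, in 5. The mean over all 15096 genes was itself lowest in BXD15, at -0.057, against -0.044 to 0.021 in the other strains. The count of lowest ranks is to be read beside this and beside the share of list probes at the first places (46.6%). The median difference was below 0 in 33 of the 41. BXD15 had the highest mean in 1 list.

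Genes low or high in BXD15 were found on all chromosomes at much the same rate. By chromosome, between 8.41% (chromosome 8) and 11.9% (chromosome 10) of genes were below, and between 5.24% (chromosome 8) and 8.62% (chromosome 1) above. The next gene along the chromosome was on the same side for 9.08% of the genes below and 6.96% of those above, near the shares over all genes. The longest run was of 4 genes below on chromosome 2, Set, Zdhhc12, Tbc1d13 and Endog.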

How the data were processed

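The authors' deposited values were log2 ratios of 31 spotted arrays, made with R 2.0.0 and limma per the submitters' processing notes. The steps, base and direction are not given in the sources used here. Sorted values were identical in all 31 columns (median 0.0127, SD 0.602), so the arrays had been made alike before deposit, and differences are relative to the rest of the array. Signal over background was not used here, and the number of arrays limits the precision.

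The platform table names 1 gene for 16874 probes, several genes for 134 and leaves 6032 unnamed; 16196 matched RefSeq (GRCm38.p6), used for names and gene order. Probes of a gene were averaged. A difference is BXD15 minus the median of the other 30 strains. Counts were made in Python 3.11.15 (numpy 2.4.6, pandas 2.3.3) and tested on simulated data. The members and lists were chosen with earlier results of these data known. Named were the 12 probes with 1 gene name and the widest gap to the nearest strain on each side, up to 4 genes a list with the largest difference, and Gapdh, Slc22a12 and Tuba1b. The division of the table into repeats of 480 follows its order; the printed layout is not given. Alternatives covered spot position, scaling, the strains compared, a 3 SD rule, the first principal component and the averaging of probes.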

Additional observations from a re-analysis of the deposited data

How the results depend on the processing

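Each strain had 1 array, so a difference of BXD15 has no replicate check. No paired analysis was possible because each strain has a single array and the labels give no replicate numbers. The counts of probes outside the range, the Gapdh difference (-1.48; -1.50 to -1.25 over the alternatives) and the median differences of the respiratory chain, proximal tubule and endothelium kept their direction under each alternative run for them; that of the endothelium shrank to -0.20 with position removed and without the first places. Several other low lists also shrank with position removed but kept their sign. Among them, proximal tubule transporters went from -0.52 to -0.25, the citrate cycle from -0.54 to -0.36 and xenobiotic metabolism from -0.61 to -0.44. The loop of Henle went from -0.30 to -0.11, cholesterol synthesis from -0.27 to -0.13, podocytes from -0.18 to -0.01 and macrophages from -0.14 to -0.04. Centring and scaling changed nothing, since the arrays hold the same sorted values. Beyond 3 SD of the other strains there were 990 probes below and 412 above. With probes averaged, 1100 genes were above. Against the other strains of BXD1-32 alone, a smaller set that more values fall below by construction, 10 endothelial and 21 proximal tubule genes were below. The median correlation of BXD15 was 0.107 by Spearman's method (other strains 0.104 to 0.444), 0.0447 over named probes and 0.0631 with spot position removed (0.0751 to 0.367). Without the first places of the repeat, an alternative chosen after seeing the data, the fatty acid oxidation difference was 0.0212 over the 9 genes left. Medians near 0 turned sign in other lists: with position removed, glycolysis 0.10, tubule injury 0.13 and cell cycle 0.00722; against BXD1-32, heat shock -0.0257; with the first principal component removed, tubule injury 0.0342; with the probe of largest spread or every probe by itself, tubule injury 0.0567; with means, tubule injury 0.0798 and tubulins -0.0929; with every probe by itself, antigen presentation 0.0530. The cause of these changes was not tested.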

Other observations

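Families were taken by the start of the gene symbol, a choice made after seeing the data, and differed among themselves. Of 136 olfactory receptor genes, 23 were above the range in BXD15 (16.9%, against 7.29% of all genes) and 4 below. Their mean was 0.02 in BXD15, the highest of 31, against -0.41 to -0.14 in the other strains. Olfr5 was at 1.31, against a lowest of -0.85, a median of -0.24 and a highest of 0.46 in the others. Olfr58 was at 0.72, against -1.01, -0.17 and 0.18. Vomeronasal receptors, with 40 genes, had 3 above (7.5%) and 2 below, and 195 zinc finger genes had 14 above and 18 below, both near the shares of all genes on the upper side. By mean, however, vomeronasal receptors ranked 30 of 31 from the lowest in BXD15, at -0.15, against -0.49 to 0.09 in the other strains. Immunoglobulin kappa variable genes ranked 29, protocadherins 28 and zinc finger genes 26, while keratin genes ranked 18 and Hox genes 17. Of 255 solute carriers, 30 were below (11.8%, near the 9.6% of all genes) and 8 above (3.14%, against 7.29%). Their mean was -0.13, the lowest of 31, against -0.07 to 0.11 in the other strains. The mean over all genes was also lowest in BXD15, at -0.057. Olfactory receptors are made mainly in the olfactory epithelium, and unnamed probes of BXD15 were also more often above than below the range.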
